A study of Mus musculus with 12 samples.

Results

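Autophagy is the route by which a cell wraps part of its cytoplasm in a double membrane and delivers it to the lysosome for breakdown. A kinase complex built on ULK1 starts the process, a lipid kinase complex built on Beclin 1 marks the forming membrane, 2 conjugation systems attach proteins of the ATG8 family to that membrane, receptors such as p62 bring cargo to it, and the transcription factor TFEB switches on many of the genes. In heart muscle cells autophagy removes damaged mitochondria and protein aggregates, and the cardiotoxic anticancer drug doxorubicin is known to disturb it. The genes that stand for these steps, namely Ulk1, Becn1, Wipi1, Atg5, Atg7, Atg12, Map1lc3b, Gabarapl1, Sqstm1 and Tfeb, were followed through 4 treatments of a cardiomyoblast culture. They were taken by gene name, with no threshold on a measured value, as a set put together when earlier results of these data were known. They are 10 of the 54345 genes in the deposited table. Each of the 10 names matched a single row, and all 10 genes were among the 25044 that had an FPKM above 0 in at least 3 libraries and were tested. FPKM counts fragments per kilobase of a gene after correction for the size of the library.

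Poly(A) RNA was sequenced from H9c2 cells, an embryonic heart line with features of myoblasts, in 12 libraries with 3 in each group, all taken after 6 h. The paper describes H9c2 as a rat line, while the labels name mouse and the values are for mouse genes. The Unt group was untreated, the DOX group received doxorubicin, the D_DXZ group received doxorubicin together with dexrazoxane (DXZ, an iron-chelating cardioprotective drug), and the D_MgHCF group received doxorubicin together with magnesium hexacyanoferrate (MgHCF), a nanocatalyst. No group received DXZ or MgHCF without doxorubicin, so every treated group shares the doxorubicin. The doses in the sequenced cells are not given in the sources used here, the line is an immortal culture and not adult heart muscle, and the labels do not say whether the libraries of a group came from separate cultures, so that p-values measure only the spread between these libraries. The comparisons with Unt ask how far each treatment stood from untreated cells, and those with DOX ask what the added agent changed.

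Each library held between 16626514 and 19365119 reads that fell on genes. The library size built into the deposited FPKM, divided by that total, lay at 1.32 to 1.38 for Unt, 0.647 to 0.784 for DOX, 0.747 to 0.892 for D_DXZ and 1.26 to 1.43 for D_MgHCF, so fold changes between DOX and either Unt or D_MgHCF depend on which scaling is used. Rescaled to TPM, in which each library sums to the same total,, the median gene with a mean FPKM of at least 1 stood 1.03 log2 units lower in DOX than in Unt, compared with 0.0484 higher in the deposited values. Replicate 3 of D_MgHCF stood apart from its group. Its mitochondrially encoded genes took 1.76% of the reads, against 2.90% to 3.16% in the other D_MgHCF libraries and 1.19% to 1.41% in Unt. Of the 6 myoblast markers examined, only Des had a mean FPKM of at least 1, and only in Unt (1.46, 122 to 148 reads). The defining genes Myod1, Myf5 and Myog were listed at 0 in every Unt library. The summed FPKM of all 6 came to 1.39 to 1.57 for Unt, 0.648 to 0.928 for DOX, 0.356 to 0.906 for D_DXZ and 0.777 to 2.46 for D_MgHCF. Apart from Des, these markers did not bear out the myoblast label. Whether rat reads lost on mouse genes lowered them was not tested. Of the 6 cardiomyocyte markers only Gata4 had a mean FPKM of at least 1 (summed 9.79 to 11 for Unt, 3.14 to 5.84 for DOX, 3.04 to 4.14 for D_DXZ and 14.9 to 26.4 for D_MgHCF), and of the 5 fibroblast markers only Col1a1 and Col1a2 did (summed 45.1 to 51.1, 97.4 to 122, 76.7 to 103 and 22 to 39.6 in the same order). The 3 leukocyte markers summed to 0.888 to 4.79 over the 12 libraries, almost all of it Cd68, and the endothelial and epithelial pairs to at most 1.01. The part of these shifts in the results was not tested, and in bulk RNA fewer cells of a type and less RNA per cell cannot be told apart.

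The genes were read against the mouse genome (GRCm38), and the table places Ulk1 on chromosome 5, Atg7 and Gabarapl1 on chromosome 6, Map1lc3b on chromosome 8, Atg5 on chromosome 10, Becn1, Wipi1 and Sqstm1 on chromosome 11, and Tfeb on chromosome 17. RefSeq promoters of GRCm38.p6, from 250 bases before to 50 bases after an annotated start, were at hand for 8 of the 10 genes. The 3 windows printed here belong to the gene with the largest log2 rise in DOX (Map1lc3b), the gene with the largest log2 rise on addition of MgHCF (Ulk1) and a gene that lay below Unt in every treated library (Atg5), each shortened to 20 bases after the start, in lower case, with any motif match in capitals. The windows are chr8:121590188-121590457 (plus strand), chr5:110810062-110810331 (minus strand) and chr10:44268089-44268358 (plus strand).
Map1lc3b: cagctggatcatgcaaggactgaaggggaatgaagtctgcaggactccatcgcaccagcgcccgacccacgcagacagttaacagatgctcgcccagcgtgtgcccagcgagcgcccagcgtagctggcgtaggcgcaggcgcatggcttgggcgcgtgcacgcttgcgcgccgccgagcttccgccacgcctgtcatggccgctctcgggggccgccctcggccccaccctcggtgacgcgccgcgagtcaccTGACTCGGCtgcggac
Ulk1: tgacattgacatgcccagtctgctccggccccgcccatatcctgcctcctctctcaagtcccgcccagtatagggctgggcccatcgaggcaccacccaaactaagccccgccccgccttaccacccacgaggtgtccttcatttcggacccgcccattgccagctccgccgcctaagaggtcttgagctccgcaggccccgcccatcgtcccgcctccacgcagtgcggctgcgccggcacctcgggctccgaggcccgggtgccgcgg
Atg5: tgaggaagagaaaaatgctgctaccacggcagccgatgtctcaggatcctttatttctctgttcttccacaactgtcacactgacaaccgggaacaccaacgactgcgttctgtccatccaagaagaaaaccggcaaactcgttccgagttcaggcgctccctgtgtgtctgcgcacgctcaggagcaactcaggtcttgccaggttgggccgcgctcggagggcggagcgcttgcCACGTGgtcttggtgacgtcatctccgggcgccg
Motifs of 4 kinds were searched on both strands, namely the E-box CACGTG that TFEB and other helix-loop-helix factors bind, the antioxidant response element TGACNNNGC bound by NRF2, the FOXO site GTAAACA and the ATF4 composite element TGATGNAAN. The capitals in the Map1lc3b window, starting at base 5 after the start, match the antioxidant response element, which 12.4% of all 32851 promoter windows hold, and those in the Atg5 window match the E-box, which 7.15% hold. The Atg7 window also holds an E-box. The FOXO and ATF4 motifs, present in 3.65% and 3.95% of all windows, were not found in any window of these genes, and neither was the longer TFEB element TCACGTGA (0.974% of all windows). These are matches of letters in mouse sequence, not in that of a rat line, and were not measured as binding.

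Doxorubicin left the 10 genes in 3 patterns. In DOX, 6 rose against Unt (Becn1, Wipi1, Atg7, Atg12, Map1lc3b and Gabarapl1), Tfeb fell, and Ulk1, Atg5 and Sqstm1 did not pass the test, which was limma on log2(FPKM + 1) with adjustment over all 25044 genes. Of all genes tested, 18.6% were called higher and 19.9% lower in this comparison, and among genes with a mean FPKM of at least 1 the shares were 36.7% and 33.3%, so calls were common everywhere. The balance of the 10 depended on the scaling, with 2 called higher and 6 lower under TPM, 2 and 4 when FPKM were divided by the summed reads, and 5 and 2 under quantile normalization. Of all 25044 genes, these scalings called 1099 higher and 10034 lower, 2075 and 8303, and 4168 and 4374, in the same order. The median log2 difference of the 10 genes was 0.63, compared with 0.0484 for all genes with a mean FPKM of at least 1. With D_DXZ, 4 of the 10 rose against Unt (Becn1, Wipi1, Map1lc3b and Gabarapl1) and 3 fell (Atg5, Sqstm1 and Tfeb), where 15.9% of all genes were called higher and 18% lower (31.9% and 31.5% at a mean FPKM of at least 1). These counts became 1 and 7 under TPM and 2 and 5 per summed reads, where 917 and 1913 of all genes were called higher and 9910 and 7946 lower. With D_MgHCF, 6 rose (Ulk1, Becn1, Wipi1, Atg12, Map1lc3b and Gabarapl1) and Atg5 fell, where 24.3% of all genes were called higher and 15.7% lower (22.5% and 29% at a mean FPKM of at least 1). Under TPM, summed reads and quantile normalization 6 were called higher and 0 to 2 lower, where 4220 to 7331 of all genes were called higher and 4138 to 4972 lower. These 3 comparisons share the Unt libraries. The plot of levels shows the values behind each call.

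**Figure D1:**
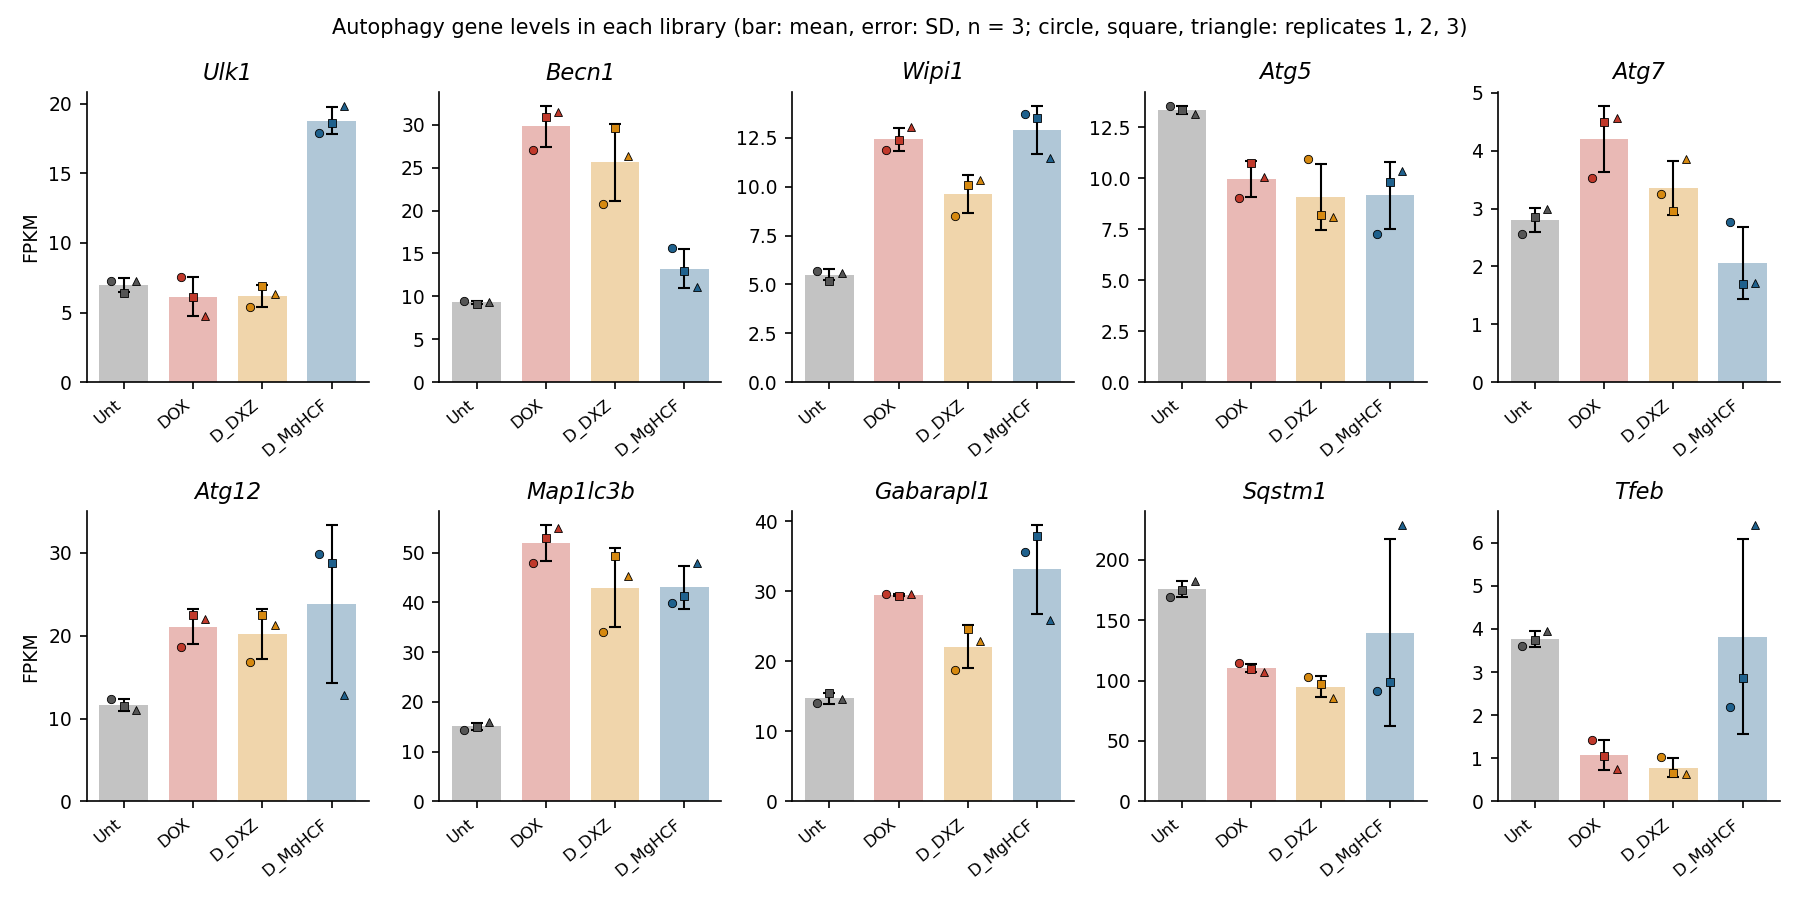
FPKM of the 10 autophagy genes in each of the 12 libraries, with 1 panel per gene; bars are group means, error bars the SD of 3 libraries and symbols the replicates. Ulk1 is high in the D_MgHCF libraries (17.9 to 19.9), Becn1 is highest in DOX and D_DXZ, Map1lc3b is high in all 3 treated groups, and replicate 3 of D_MgHCF stands apart for Sqstm1 (229), Tfeb (6.41) and Atg12 (12.8).

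Ulk1 encodes the kinase that starts autophagosome formation, and its RNA was raised in the D_MgHCF libraries. Ulk1 had an FPKM of 7.25, 6.41 and 7.30 in Unt, of 7.56, 6.10 and 4.76 in DOX, of 5.38, 6.92 and 6.31 in D_DXZ and of 17.9, 18.6 and 19.9 in D_MgHCF. The Unt, DOX and D_DXZ values overlapped, and all 3 D_MgHCF values lay above the rest. The mean of D_MgHCF was 3.06-fold that of DOX (log2 difference 1.49 ± 0.14 SE, adjusted p = 1.81e-05), 3.03-fold that of D_DXZ (1.46 ± 0.14, adjusted p = 2.59e-05) and 2.69-fold that of Unt (1.31 ± 0.14, adjusted p = 0.000106). The D_MgHCF increase over DOX ranged from 1.49 to 2.58 log2 units over the deposited scaling, TPM, summed reads, quantile normalization and voom. It was called in each, although voom keeps the deposited scaling. Between DOX and Unt the log2 difference was -0.18 with a 95% interval from -0.49 to 0.13 (adjusted p = 0.409), and it was called lower under TPM (-1.37) and when FPKM were divided by the summed reads (-0.99). The replicates of D_MgHCF agreed more closely for Ulk1 (CV 5.27%) than for any other of the 10 genes in that group, where the highest CV was 59.2% for Tfeb.

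Becn1 encodes Beclin 1, the scaffold of the class III phosphatidylinositol 3-kinase complexes. Its FPKM was 9.42, 9.13 and 9.31 in Unt, 27.0, 30.9 and 31.5 in DOX, 20.8, 29.7 and 26.4 in D_DXZ, and 15.6, 12.9 and 11.1 in D_MgHCF. The DOX and D_DXZ libraries overlapped, and the D_MgHCF libraries lay between them and Unt with no overlap on either side. Becn1 was 3.21-fold higher in DOX than in Unt (log2 difference 1.58 ± 0.14 SE, adjusted p = 1.73e-05). With the sign kept, so that every fall ranks below, this difference stood above that of 89.7% of the 11515 genes with a mean FPKM of at least 1. Becn1 was 2.76-fold higher in D_DXZ than in Unt (1.36 ± 0.14, adjusted p = 8.51e-05) and 1.43-fold higher in D_MgHCF (0.46 ± 0.14, adjusted p = 0.0269). Against DOX, the mean in D_MgHCF was 2.25-fold lower (-1.12 ± 0.14, adjusted p = 9.67e-05). The rise in DOX was called under the deposited scaling, TPM, summed reads and quantile normalization, at 0.30 at the lowest (TPM). The lower level in D_MgHCF than in DOX was lost when FPKM were divided by the summed reads (-0.20, adjusted p = 0.0892) and was 0.04 under TPM. The D_MgHCF rise over Unt lost its call when any 1 of 5 libraries was left out, at an adjusted p of 0.0616 to 0.0896 (any Unt library, or replicate 1 or 2 of D_MgHCF).

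Wipi1 encodes a protein that binds the lipid made by the Beclin 1 complex. Its FPKM was 5.71, 5.20 and 5.60 in Unt, 11.9, 12.4 and 13.1 in DOX, 8.53, 10.1 and 10.3 in D_DXZ, and 13.7, 13.5 and 11.5 in D_MgHCF. Every treated library lay above every Unt library, and those of D_DXZ lay below those of DOX and of D_MgHCF, which overlapped. The differences from Unt were 1.05 ± 0.097 log2 units in DOX (2.26-fold, adjusted p = 2e-05), 0.71 ± 0.097 in D_DXZ (1.75-fold, adjusted p = 0.000318) and 1.09 ± 0.097 in D_MgHCF (2.35-fold, adjusted p = 4.2e-05). Under TPM the DOX difference was -0.17 and the D_DXZ difference -0.34, while that of D_MgHCF was 1.005, and per summed reads the DOX difference was 0.20 and not called (adjusted p = 0.0867). Between D_MgHCF and D_DXZ the log2 difference was 0.39 ± 0.097 (adjusted p = 0.00799).

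Atg5, Atg7 and Atg12 belong to the conjugation system, in which ATG7 activates ATG12 and the product ATG12-ATG5 helps to attach ATG8 proteins to lipid. The 3 genes did not move together. Atg5 was 13.6, 13.3 and 13.2 FPKM in Unt, 9.05, 10.8 and 10.1 in DOX, 11, 8.18 and 8.12 in D_DXZ, and 7.29, 9.84 and 10.4 in D_MgHCF. All 9 treated libraries lay below all 3 Unt libraries, and the treated groups overlapped one another. Atg5 was 1.47-fold lower than Unt in D_DXZ (-0.52 ± 0.14, adjusted p = 0.015) and 1.46-fold lower in D_MgHCF (-0.51 ± 0.14, adjusted p = 0.0167), and the DOX difference had an adjusted p just above the threshold (-0.39 ± 0.14, adjusted p = 0.0508). Under TPM the DOX difference was -1.65. The D_DXZ call was lost without replicate 2 or 3 of D_DXZ (adjusted p = 0.0616 and 0.0633), and the D_MgHCF call without replicate 1 of Unt (adjusted p = 0.0519).

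Atg12, on chromosome 18, was 12.4, 11.5 and 11 FPKM in Unt, 18.7, 22.5 and 22.1 in DOX, 16.8, 22.5 and 21.2 in D_DXZ, and 29.8, 28.8 and 12.8 in D_MgHCF. The treated libraries all lay above Unt, but replicate 3 of D_MgHCF was far below the others of its group and next to the Unt values. Atg12 was 1.81-fold higher in DOX (0.80 ± 0.26, adjusted p = 0.0326) and 2.05-fold higher in D_MgHCF (0.89 ± 0.26, adjusted p = 0.0222) than in Unt, and in D_DXZ the difference was 0.74 ± 0.26 (adjusted p = 0.0527). Without replicate 3 of D_MgHCF, which widens the shared estimate of the spread, these became 0.80 (adjusted p = 0.000228), 1.26 (adjusted p = 3.5e-05) and 0.74 (adjusted p = 0.000522), and D_MgHCF was also called higher than DOX (0.46, adjusted p = 0.01). The DOX call was lost without any 1 of the Unt libraries or replicate 2 or 3 of DOX (adjusted p up to 0.0935), and the D_MgHCF call without replicate 2 or 3 of Unt or replicate 1 or 2 of D_MgHCF (up to 0.0853). Under TPM the DOX difference was -0.48.

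Atg7 was 2.57, 2.86 and 2.98 FPKM in Unt, 3.54, 4.50 and 4.57 in DOX, 3.25, 2.96 and 3.86 in D_DXZ, and 2.77, 1.70 and 1.71 in D_MgHCF. The DOX values lay above those of Unt and of D_MgHCF, and the D_DXZ values overlapped both DOX and Unt. The mean of DOX was 1.50-fold that of Unt (0.45 ± 0.16, adjusted p = 0.0474), a call that was lost (adjusted p up to 0.147) in 8 of the 12 fits that each left out 1 library. Under TPM Atg7 was called in the opposite direction (-0.62, adjusted p = 0.00258), and per summed reads the difference was -0.29 and not called. Atg7 was 2.04-fold lower in D_MgHCF than in DOX (-0.78 ± 0.16, adjusted p = 0.00219), a call kept in all 12 of those fits but absent under TPM (0.12) and under division by the summed reads (-0.06).

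The ATG8 proteins encoded by Map1lc3b (LC3B) and Gabarapl1 coat the autophagosome and bind cargo receptors. Map1lc3b was 14.4, 15.0 and 15.9 FPKM in Unt, 47.8, 52.9 and 54.9 in DOX, 34.0, 49.3 and 45.3 in D_DXZ, and 39.8, 41.3 and 47.9 in D_MgHCF. All treated libraries lay above all Unt libraries, and the treated groups overlapped. The means of DOX, D_DXZ and D_MgHCF were 3.44-fold, 2.84-fold and 2.85-fold that of Unt (log2 differences 1.72, 1.43 and 1.45, each ± 0.13 SE; adjusted p = 1.17e-05, 6.24e-05 and 4.64e-05). The DOX rise was called under the deposited scaling, TPM, summed reads and quantile normalization. It was smallest under TPM (0.40, adjusted p = 0.0409), where the D_DXZ rise was not called (0.29). D_MgHCF and DOX differed by -0.27 (95% interval -0.56 to 0.03, adjusted p = 0.114), a sign that turned under 3 other scalings, to 0.71 by quantile normalization, 0.68 per summed reads and 0.93 by TPM.

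A processed pseudogene of Map1lc3b, Gm6055, shares 378 bases with it at 99.7% identity, and reads that fit both could have been divided between them. Gm6055 was itself listed at 24.6 to 30.0 FPKM in the Unt libraries, and at 87.7 to 127 with DOX alone, 73.2 to 117 when DXZ was added and 80.4 to 90.8 when MgHCF was added, so its groups stood in the same relation to Unt as those of Map1lc3b. The pseudogenes Gm12727, Gm5612 and Gm6054, which share 360 to 378 bases with it, had at most 0.606 FPKM. Map1lc3b also had many shorter matches, some to transcripts of well expressed genes such as Cct6a (157 bases, up to 153.5 FPKM) and Vamp3 (193 bases, up to 115.3 FPKM). Atg12 matched Syt11 over 164 bases (up to 13.76 FPKM). The effect of these matches on the counts was not tested. Opposite-strand genes share bases with Sqstm1 (Mrnip, at most 2.91 FPKM), Becn1 (Cntd1, at most 0.162 FPKM), Gabarapl1 (1700101I11Rik, at most 0.51 FPKM) and Map1lc3b (Zcchc14, over 58 bases). Since the strand setting of the counting is not given in the sources used here, their reads cannot be told apart.

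Gabarapl1 was 14.0, 15.5 and 14.6 FPKM in Unt, 29.6, 29.4 and 29.6 in DOX, 18.8, 24.7 and 22.9 in D_DXZ, and 35.6, 37.9 and 25.9 in D_MgHCF. The D_DXZ libraries lay below those of DOX and D_MgHCF and above those of Unt. Gabarapl1 was 2.01-fold higher in DOX (0.96 ± 0.14, adjusted p = 0.000259), 1.50-fold higher in D_DXZ (0.55 ± 0.14, adjusted p = 0.01) and 2.25-fold higher in D_MgHCF (1.10 ± 0.14, adjusted p = 0.000244) than in Unt. Under TPM the first 2 differences were -0.35 and -0.58, and that of D_MgHCF was 0.98. D_MgHCF was above D_DXZ by 0.55 ± 0.14 (adjusted p = 0.0078), and D_DXZ differed from DOX by -0.41 (95% interval -0.72 to -0.10, adjusted p = 0.42).

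Sqstm1 encodes p62, the receptor that links ubiquitinated cargo to ATG8 proteins and is itself degraded by autophagy. It was the most abundant of the 10 by FPKM, at 169, 175 and 183 in Unt, 114, 109 and 107 in DOX, 103, 96.7 and 85.3 in D_DXZ, and 91.4, 99.1 and 229 in D_MgHCF. Of the 9 treated libraries, 8 lay below Unt, and the exception was replicate 3 of D_MgHCF, which lay above it. With all libraries, Sqstm1 was called lower only in D_DXZ (1.85-fold, -0.88 ± 0.28, adjusted p = 0.0313), and the DOX and D_MgHCF differences were -0.66 ± 0.28 (adjusted p = 0.0902) and -0.46 ± 0.28 (adjusted p = 0.216). Without replicate 3 of D_MgHCF, the differences from Unt were -0.66 in DOX (adjusted p = 0.000127), -0.88 in D_DXZ (adjusted p = 5.31e-05) and -0.88 in D_MgHCF (adjusted p = 5.7e-05), all 3 called. The DOX fall was also called by voom, which keeps the deposited scaling (-0.67, adjusted p = 0.0483). It was called under TPM, summed reads and quantile normalization too, reaching -2.17 with the last (adjusted p = 0.00142). D_MgHCF was called above DOX under TPM (1.42), summed reads (1.17) and quantile normalization (1.55). The D_DXZ call of the full set was lost in fits without other single libraries, at an adjusted p of 0.0523 to 0.102 (any Unt or any D_DXZ library).

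Tfeb, the transcription factor of lysosomal and autophagy genes, was the only one of the 10 called lower in DOX. Its FPKM was 3.60, 3.75 and 3.95 in Unt, 1.43, 1.06 and 0.747 in DOX, 1.04, 0.660 and 0.647 in D_DXZ, and 2.20, 2.86 and 6.41 in D_MgHCF. The DOX and D_DXZ libraries lay below all others and rested on 49 to 123 reads each, and the D_MgHCF libraries lay on both sides of Unt. Tfeb was 3.49-fold lower in DOX (-1.21 ± 0.27 on the log2(FPKM + 1) scale, adjusted p = 0.00464) and 4.82-fold lower in D_DXZ (-1.43 ± 0.27, adjusted p = 0.00219) than in Unt. In D_MgHCF the difference from Unt was -0.08 (95% interval -0.69 to 0.53, adjusted p = 0.843), or -0.44 without replicate 3 (adjusted p = 0.0544). D_MgHCF was 3.55-fold above DOX (1.13 ± 0.27, adjusted p = 0.00598), and without replicate 3 the log2 difference was 0.77 (adjusted p = 0.00322). The DOX fall kept its direction under TPM, summed reads and quantile normalization. Of these, it lost its call only under quantile normalization (-0.79, adjusted p = 0.0698). Under quantile normalization the rise from DOX to D_MgHCF also missed the threshold (0.75, adjusted p = 0.0753), as it did when only these groups were fitted (adjusted p = 0.052).

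**Figure D2:**
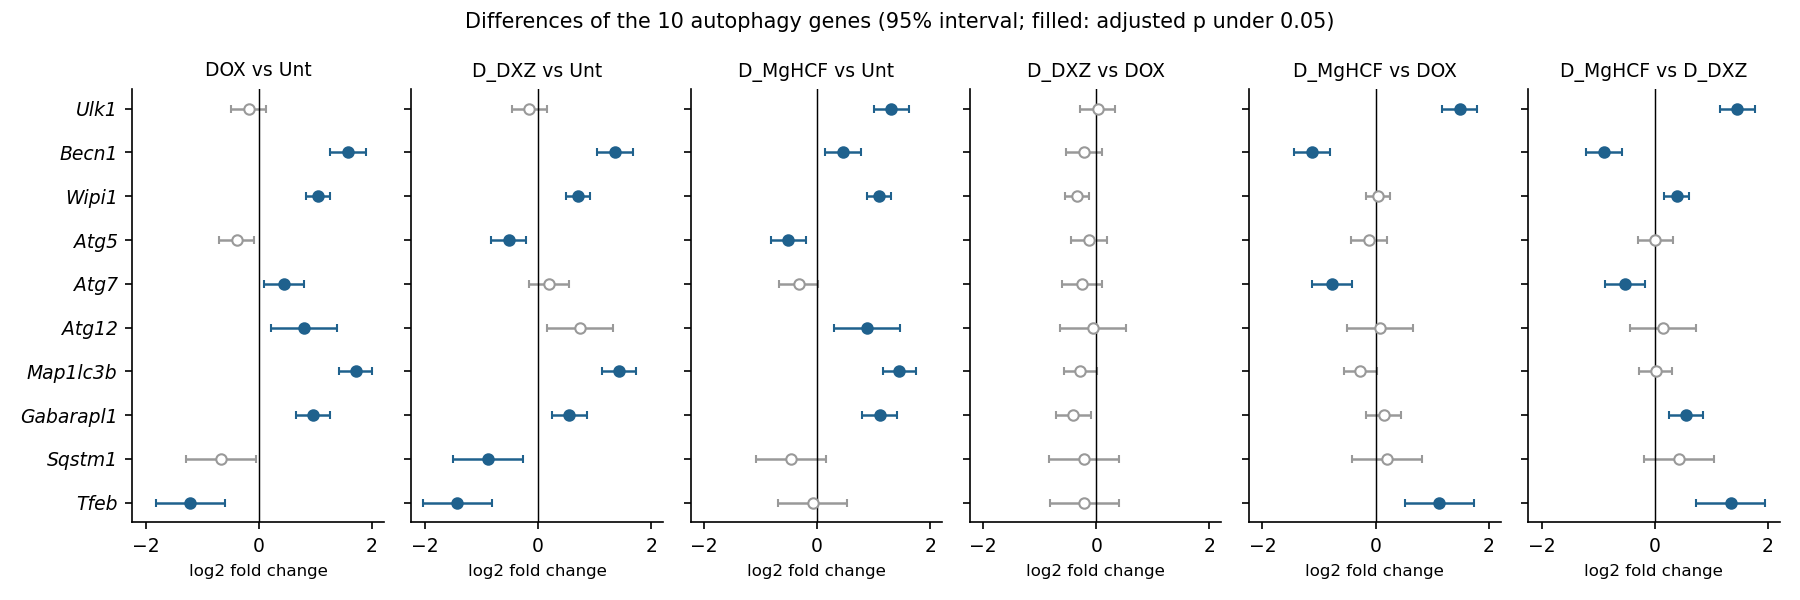
Log2 fold changes of the 10 genes in the 6 comparisons from the fit on log2(FPKM + 1), with 95% intervals; filled points have an adjusted p under 0.05. No point is filled for D_DXZ against DOX, and Ulk1 lies at 1.46 and 1.49 against D_DXZ and DOX in D_MgHCF.

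The added agents, DXZ and MgHCF, were compared with DOX and with each other. Against DOX, none of the 10 genes was called in D_DXZ by limma, where 0% of all genes were called higher and 0% lower. At an unadjusted limma p under 0.05 there were 2 of the 10, Wipi1 (-0.34, adjusted p = 0.339) and Gabarapl1 (-0.41, adjusted p = 0.42), among 2388 of all genes, and voom on the recovered reads also called 0. The 95% intervals of D_DXZ against DOX were widest for Sqstm1 (-0.84 to 0.40), Tfeb (-0.83 to 0.39) and Atg12 (-0.65 to 0.52). These intervals are unadjusted and are not limits of detection, and the smallest adjusted limma p among all genes was 0.087. The absence of calls therefore does not show the absence of changes. In D_MgHCF, 2 of the 10 were higher than in DOX (Ulk1 and Tfeb) and 2 lower (Becn1 and Atg7), where 31.4% of all genes were called higher and 20.1% lower (33.5% and 40.1% where the mean FPKM reached 1). In the direct comparison of D_MgHCF with D_DXZ, 4 were higher (Ulk1, Wipi1, Gabarapl1 and Tfeb) and 2 lower (Becn1 and Atg7), where 29.4% of all genes were called higher and 19% lower (30.4% and 38% at a mean FPKM of at least 1). With only these 2 groups fitted, 2 were higher and 1 lower, and Wipi1, Gabarapl1 and Atg7 missed the threshold. That fit called 4326 of all 25044 genes higher and 3788 lower. The comparisons with DOX share the DOX libraries. Under TPM and under division by the summed reads, 8 of the 10 were called higher and 0 lower in D_MgHCF, against DOX and against D_DXZ alike. Against DOX this went with the median gene at 0.873 and 0.666. Of all 25044 genes, these scalings called 13331 and 12376 higher and 1679 and 2401 lower against DOX. Against D_DXZ they called 12648 and 11426 higher and 1538 and 2382 lower.

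**Figure D3:**
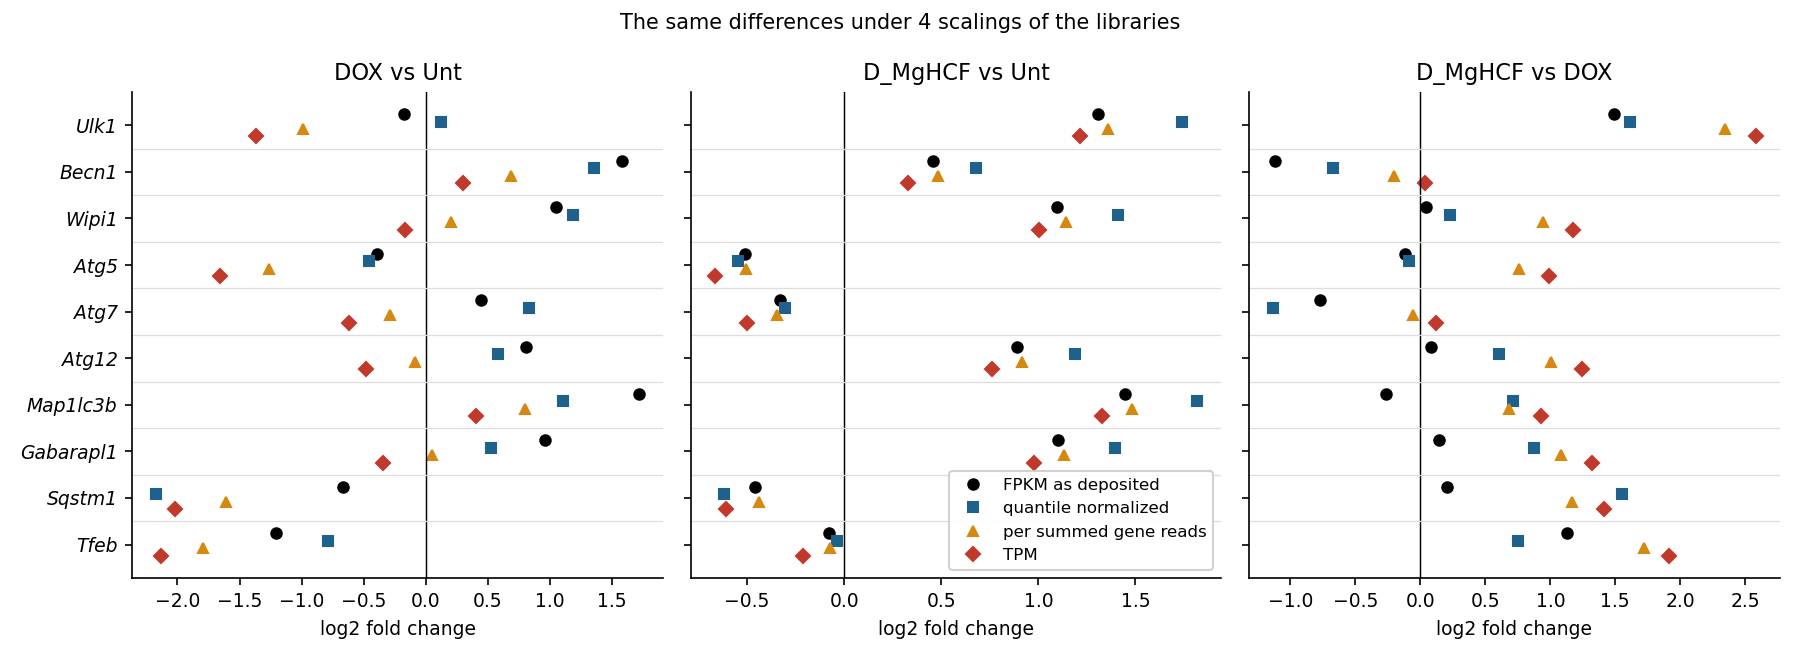
Log2 fold changes of the 10 genes in 3 comparisons when the libraries are scaled as deposited, by quantile normalization, by their summed gene reads or to TPM. In D_MgHCF against Unt the 4 symbols of each gene lie on the same side of 0, whereas in DOX against Unt those for TPM and summed reads lie to the left of those for FPKM as deposited, and Wipi1, Atg7, Atg12 and Gabarapl1 cross 0 under TPM.

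Ratios of FPKM between 2 of the genes in the same library are not changed by a factor applied to a whole library, as for TPM and division by the summed reads, although quantile normalization does change them. They were taken as a description, since 3 libraries against 3 cannot give an exact two-sided p under 0.10. The log2 ratio of Map1lc3b to Sqstm1 was -3.54 ± 0.014 (SD, n = 3) in Unt, -1.09 ± 0.15 in DOX, -1.16 ± 0.38 in D_DXZ and -1.57 ± 0.59 in D_MgHCF, with no overlap between Unt and any treated group. Becn1 relative to Tfeb went from 1.30 ± 0.078 in Unt to 4.83 ± 0.58 in DOX and 5.06 ± 0.64 in D_DXZ, and was 1.93 ± 1.04 in D_MgHCF. The D_MgHCF libraries had 2.83, 2.18 and 0.797, and only the last, replicate 3, lay below Unt. The conjugation partners Atg12 and Atg5 were near parity in Unt (-0.20 ± 0.068) and stood at 1.08 ± 0.046 in DOX, 1.15 ± 0.47 in D_DXZ and 1.30 ± 0.89 in D_MgHCF. Ulk1 relative to Atg5 was negative in Unt (-0.94 ± 0.11), DOX (-0.72 ± 0.42) and D_DXZ (-0.54 ± 0.42) and positive in every D_MgHCF library (1.05 ± 0.21). Between the 2 ATG8 genes, Gabarapl1 relative to Map1lc3b was -0.04 ± 0.081 in Unt, -0.81 ± 0.10 in DOX and -0.95 ± 0.077 in D_DXZ, while D_MgHCF had -0.16, -0.12 and -0.89, the last in replicate 3. Sqstm1 relative to Tfeb was 5.54 ± 0.012 in Unt and 5.22 ± 0.14 in D_MgHCF and higher in DOX (6.73 ± 0.42) and D_DXZ (6.96 ± 0.29).

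**Figure D4:**
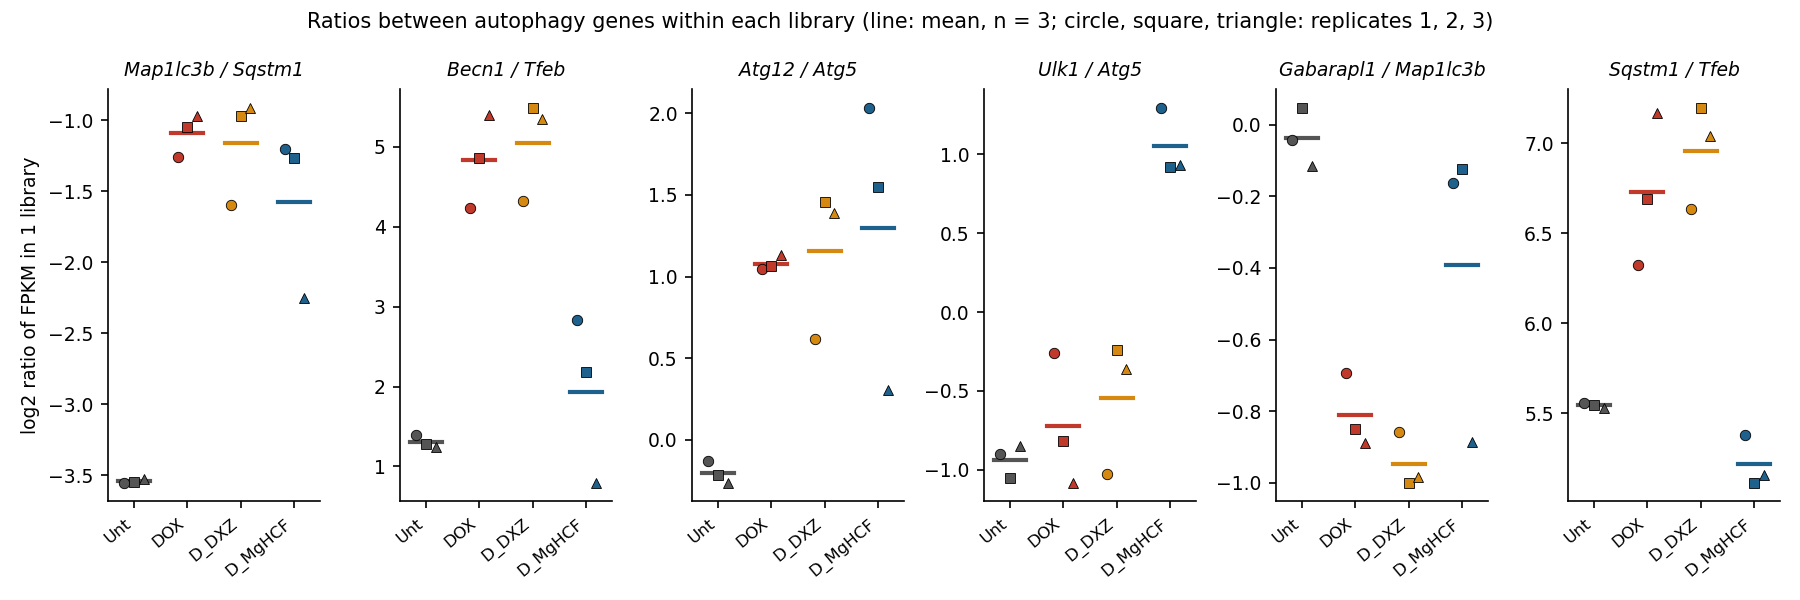
Log2 ratios of FPKM between pairs of the 10 genes inside each library; symbols are replicates and lines the means of 3. Ulk1 over Atg5 is above 0 in D_MgHCF alone, and Becn1 over Tfeb is highest in DOX and D_DXZ. Replicate 3 of D_MgHCF lies away from its group for Map1lc3b over Sqstm1, Becn1 over Tfeb, Atg12 over Atg5 and Gabarapl1 over Map1lc3b.

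Among themselves the 10 genes were spread over a wide range of levels. In Unt, Sqstm1 had a mean of 176 ± 6.72 FPKM (SD, n = 3), followed by Map1lc3b (15.1 ± 0.725), Gabarapl1 (14.7 ± 0.746), Atg5 (13.3 ± 0.200), Atg12 (11.6 ± 0.730), Becn1 (9.29 ± 0.150), Ulk1 (6.99 ± 0.497), Wipi1 (5.50 ± 0.269), Tfeb (3.77 ± 0.176) and Atg7 (2.80 ± 0.214). Only the neighbours Map1lc3b and Gabarapl1 overlapped between libraries in this order. The median coefficient of variation of the 10 between libraries of a group was 4.84% in Unt, 8.38% in DOX, 14.3% in D_DXZ and 18.6% in D_MgHCF, compared with 7.20%, 13.0%, 13.7% and 25.7% for all genes with a mean FPKM of at least 1. Over the 12 libraries, which share treatments and scaling, Pearson's r of log2 FPKM was 0.965 between Wipi1 and Gabarapl1, 0.932 between Wipi1 and Map1lc3b, -0.921 between Becn1 and Tfeb and -0.873 between Atg12 and Sqstm1. On log2(FPKM + 1), the genes of the table whose pattern over the 12 libraries was most like that of Sqstm1 were Vps13d (r = 0.990), Reep6 (r = 0.978) and Parp10 (r = 0.976), and those most like Tfeb were Susd6 (r = 0.994), Csk (r = 0.994) and 1700017B05Rik (r = 0.992), out of 11516 compared. In replicate 3 of D_MgHCF all 6 stood above every Unt library, as Sqstm1 and Tfeb did.

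To set the 10 genes in their pathway, 67 other autophagy genes were grouped by role, of which 64 could be tested, while Nrbf2, Atg2a and Epg5 were listed at 0 in at least 10 of the 12 libraries. In DOX against Unt, 16 of the 64 rose and 26 fell, with a median log2 difference of -0.18, whereas under TPM 1 rose and 50 fell. From DOX to D_MgHCF, 28 rose and 14 fell, with a median of 0.35, whereas under TPM 54 rose and 2 fell. Of all genes whose mean FPKM reached 1, the first of these comparisons called 36.7% higher and 33.3% lower. The second called 33.5% higher and 40.1% lower. Under TPM, of all 25044 genes tested, the first called 1099 higher and 10034 lower, and the second 13331 and 1679. Under quantile normalization the first called 4168 higher and 4374 lower, and the second 4635 and 4916. In D_DXZ against DOX limma called 0 of the 64. In D_DXZ against Unt 11 rose and 26 fell (31.9% and 31.5% of genes at that level), in D_MgHCF against Unt 22 rose and 15 fell (22.5% and 29%), and in D_MgHCF against D_DXZ 29 rose and 13 fell (30.4% and 38%). The plot of roles places the 10 genes among them.

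**Figure D5:**
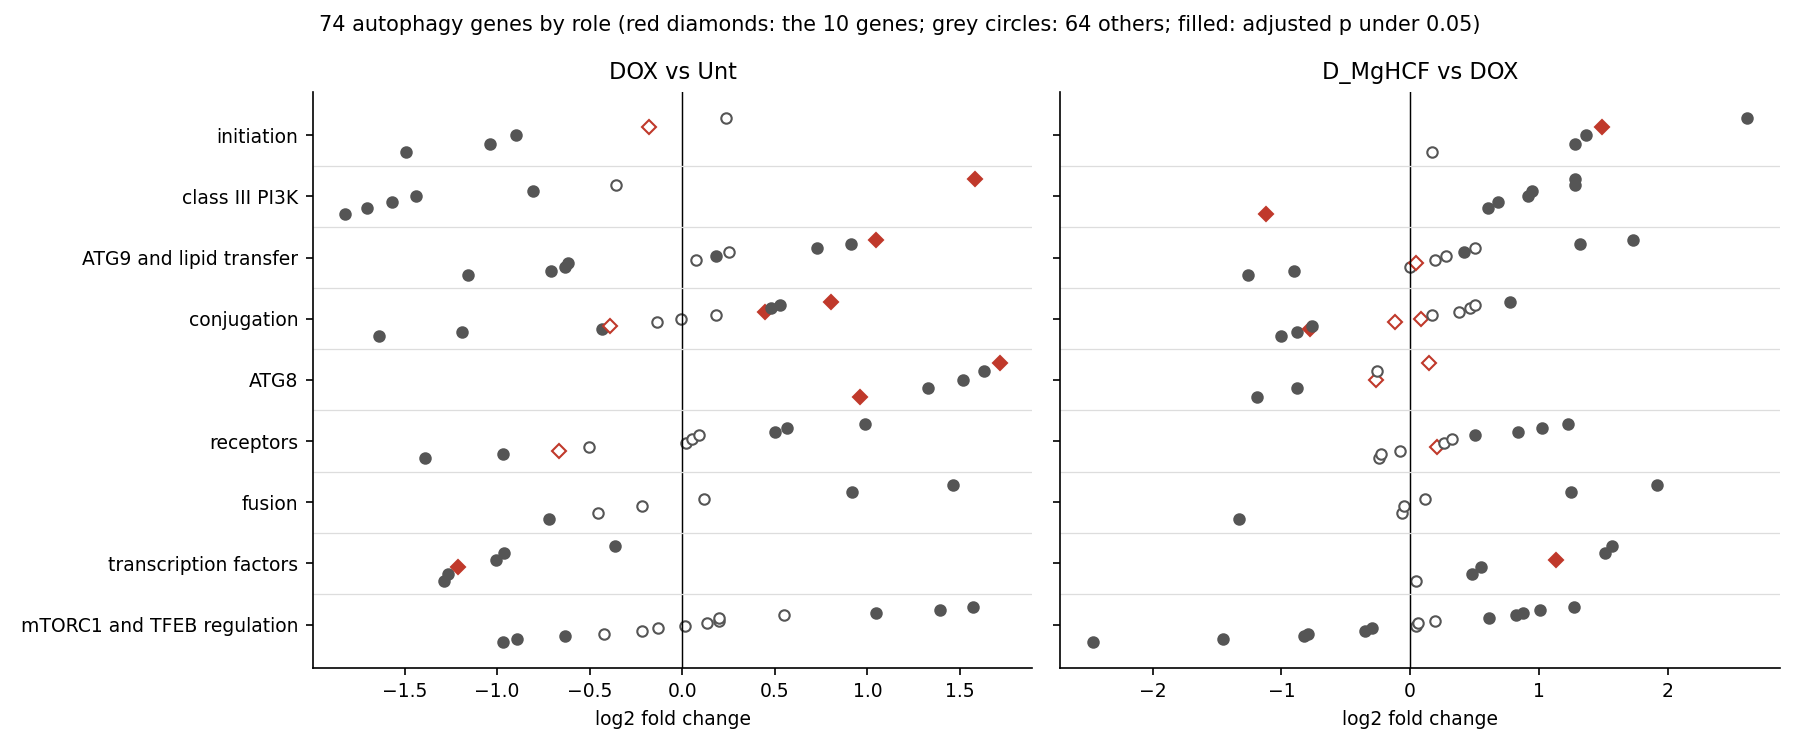
Log2 fold changes of 74 autophagy genes by role in DOX against Unt and in D_MgHCF against DOX; red diamonds are the 10 genes, grey circles the 64 others, and filled symbols have an adjusted p under 0.05. Becn1 lies opposite to the rest of the class III PI3K row in both panels (under TPM its D_MgHCF value of -1.12 becomes 0.04), and the ATG8 row lies wholly to the right in DOX against Unt (under TPM Gabarapl1 moves to -0.35).

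In the initiation complex, Ulk1 was not called in DOX, whereas 3 of the 4 other genes fell, with Atg101 at -1.49 ± 0.35 (adjusted p = 0.00561) and Rb1cc1, the scaffold FIP200, at -1.04 ± 0.24 (adjusted p = 0.00479). With MgHCF added, 3 of the 4 rose over DOX along with Ulk1, led by Atg101 (2.62 ± 0.35, 51.1 ± 11 against 8.03 ± 4.38 FPKM (SD, n = 3), adjusted p = 0.000141) and Rb1cc1 (1.36 ± 0.24, adjusted p = 0.000778). Under quantile normalization the DOX fall of Rb1cc1 missed the threshold (-0.60, adjusted p = 0.0713) and 2 of the 4 fell, whereas 4 of 4 fell under TPM and per summed reads.

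The class III PI3K complex went against Becn1. Of its 6 other genes tested, 5 fell and 0 rose in DOX, with a median of -1.50, and these included Rubcn, an inhibitor of the complex that acts on autophagosome maturation (12.8 ± 0.871 FPKM in Unt, 2.94 ± 0.670 in DOX, adjusted p = 3.01e-05), and Ambra1 (8.06 ± 0.825 and 1.79 ± 0.313, adjusted p = 7.36e-05). All 6 rose from DOX to D_MgHCF, with Uvrag at 1.28 ± 0.24 (adjusted p = 0.00123) and Rubcn at 1.28 ± 0.18 (adjusted p = 0.000222), while Becn1 fell, a fall that was lost under TPM and per summed reads. Under quantile normalization 4 of the 6 were called higher in D_MgHCF, where 4635 of all 25044 genes were called higher and 4916 lower. The count of falls in DOX was 4 under quantile normalization and 6 under TPM, with 0 rises in either.

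The other ATG8 genes followed Map1lc3b in DOX. Gabarapl2 (43.4 ± 4.96 FPKM against 13.3 ± 1.05, 1.63 ± 0.13, adjusted p = 1.26e-05), Map1lc3a (95.1 ± 13.1 against 32.4 ± 1.01, 1.52 ± 0.14, adjusted p = 2.28e-05) and Gabarap (1.33, adjusted p = 1.43e-05) all rose over Unt, although under TPM 1 of the 3 was called and under quantile normalization 2. In D_MgHCF against DOX, Gabarapl2 (-1.19 ± 0.13, adjusted p = 4.21e-05) and Gabarap (-0.88 ± 0.11, adjusted p = 0.000112) fell, whereas Gabarapl1 and Map1lc3b did not pass the test. The fall of Gabarapl2 was absent under TPM (-0.012, adjusted p = 0.9), and that of Gabarap turned under TPM (0.33), quantile normalization (0.49) and division by the summed reads (0.08).

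Among the proteins around Wipi1 that supply membrane, 3 of 9 rose and 4 fell in DOX (0 and 7 under TPM), with Wdr45 up by 0.91 ± 0.17 (adjusted p = 0.00144; -0.23 under TPM) and Zfyve1 at -1.16 ± 0.17 (adjusted p = 0.000334). In D_MgHCF against DOX, Zfyve1 rose by 1.73 ± 0.17 (adjusted p = 2.49e-05) and Wipi2, a paralogue of Wipi1, by 1.32 ± 0.13 (adjusted p = 2.56e-05). Of the 8 other conjugation genes, 2 rose and 3 fell in DOX (0 and 7 under TPM), including the ATG8 proteases Atg4c (-1.64 ± 0.19, adjusted p = 6.69e-05) and Atg4d (-1.19 ± 0.22, adjusted p = 0.00144). From DOX to D_MgHCF 1 rose and 3 fell (5 and 0 under TPM), among them the ATG12-conjugating enzyme Atg10 (-1.01 ± 0.12, adjusted p = 7.21e-05; -0.29 and not called under TPM) and the ATG8-conjugating enzyme Atg3 (-0.88 ± 0.16, adjusted p = 0.00116; 0.28 under TPM and 0.04 per summed reads).

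Of the 9 other receptors and adaptors, 3 rose and 2 fell in DOX. These counts were 0 and 8 under TPM and 3 and 3 under quantile normalization. Ncoa4, the ferritin receptor, rose by 0.99 ± 0.17 (adjusted p = 0.000871; -0.26 under TPM), and Wdfy3 fell from 7.50 ± 0.713 to 2.24 ± 0.194 FPKM (adjusted p = 5.11e-05). With MgHCF added 4 rose over DOX and 0 fell, with Optn at 1.22 ± 0.20 (adjusted p = 0.000573) and Calcoco1 at 1.02 ± 0.15 (adjusted p = 0.000239). These counts were 9 and 0 under TPM and 6 and 1 under quantile normalization. For the fusion of autophagosomes with lysosomes, Rab7 rose in DOX (208 ± 29.0 FPKM against 74.2 ± 3.0, adjusted p = 7.03e-05) and fell in D_MgHCF against DOX (82.9 ± 20.6, -1.33 ± 0.17, adjusted p = 0.000113), but both signs turned under quantile normalization (-0.03 and 0.12). Tecpr1 rose in DOX by 0.92 ± 0.14 (adjusted p = 0.000443; -0.16 under TPM) and Plekhm1 in D_MgHCF against DOX by 1.92 ± 0.13 (adjusted p = 4.57e-06).

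All 5 other transcription factors fell with Tfeb in DOX, with Foxo3 at -1.29 ± 0.27 (adjusted p = 0.0026) and Foxo1 at -1.27 ± 0.15 (adjusted p = 7.59e-05), a count of 5 under TPM and 4 under quantile normalization. In D_MgHCF against DOX 4 of the 5 rose, with Foxo3 at 1.57 ± 0.27 (adjusted p = 0.00066) and Foxo1 at 1.51 ± 0.15 (adjusted p = 2.4e-05). Under quantile normalization 2 of the 5 were called higher. Zkscan3, a repressor of autophagy genes, was among those that fell in DOX (-1.005 on the log2 scale, adjusted p = 5.09e-05). Of 14 genes that control mTORC1 and TFEB, 3 rose and 3 fell in DOX, or 0 and 10 under TPM. Ywhab, a 14-3-3 protein, was at 62.2 ± 1.28 FPKM in Unt, 188 ± 21 in DOX and 33.6 ± 7.98 in D_MgHCF (adjusted p = 2.67e-05 and 3.08e-06), and Tsc2, an inhibitor of mTORC1, rose in DOX by 1.39 ± 0.13 (adjusted p = 1.91e-05). Neither rise was called under TPM (0.22 for Ywhab, 0.087 for Tsc2). That of Ywhab was also lost under quantile normalization (0.11, adjusted p = 0.637). Mlst8, a subunit of mTORC1, fell in D_MgHCF against DOX (-1.45 ± 0.17, adjusted p = 7.34e-05).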

How the data were processed

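The sources describe NEBNext libraries of poly(A) RNA read as 150 bp pairs and analysed on the NovoMagic platform, and the submitters' processing notes name HISAT2 2.0.5 and GRCm38. The paper calls the cells rat while the labels and identifiers are mouse, and rat reads on mouse genes can be lost unevenly. The counting program and strand setting are not given in the sources used here. The deposited FPKM were made by the authors. FPKM times gene length was a whole multiple of 1 step per library for 100% of values (tolerance 0.05), which gave the reads, and the authors' scaling equalled a median-ratio factor.

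The test was limma (3.58.1, under R 4.3.3), applied to log2(FPKM + 1) in a single fit of the 4 groups with an intensity trend, 6 comparisons and Benjamini-Hochberg adjustment over 25044 genes, called under 0.05. Fold changes are on that scale, which shrinks those of low genes, whereas folds are ratios of mean FPKM. The fit shares 1 estimate of spread per gene, although the median CV of the 10 genes was 4.84% in Unt and 18.6% in D_MgHCF. All 10 members are named. Of the other autophagy genes, each role's 2 largest called changes in DOX against Unt and D_MgHCF against DOX with a mean FPKM of at least 1 are named, plus Gabarap and Zkscan3, chosen after their values were seen. Members, lists and tests were chosen with earlier results of these data known. BLAST 2.17.0 was used to look for near-identical copies (at least 95% identity over 150 bases) among GENCODE M21 transcripts. The fit was also run on simulated counts with the same dispersion in every group. The groups here differed in spread, so that run cannot show how the fit behaves on them. The 23 alternatives comprised a pseudocount of 0.1, 2 filters, a replicate block, fits of 2 groups, TPM, summed-read and quantile scaling, voom, 2 call rules and each library left out. Voom was run on the recovered reads with a median-ratio factor, which is the deposited scaling.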

Additional observations from a re-analysis of the deposited data

How the results depend on the processing

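The number of the 10 genes called, though not its split by direction, stayed within 1.5 times under every setting except the following. Requiring a 2-fold change as well left 4 in DOX against Unt, 3 in D_DXZ against Unt, 4 in D_MgHCF against Unt and 2 in D_MgHCF against D_DXZ. How many of all genes met that rule was not counted, so these counts cannot be set against a share. Unadjusted p gave 2 in D_DXZ against DOX, among 2388 of all genes. Fits of the 2 groups compared gave 3 in D_MgHCF against D_DXZ, where 4326 of all genes were called higher and 3788 lower. TPM and summed-read scaling gave 8 each in D_MgHCF against DOX. Leaving out each library gave 5 to 9, 5 to 8 and 5 to 8 for DOX, D_DXZ and D_MgHCF against Unt, 4 to 6 and 5 to 7 for D_MgHCF against DOX and D_DXZ, and reversed no call. Of all 25044 genes, these fits called 4098 to 5241 higher and 4303 to 5716 lower in DOX against Unt. In D_DXZ against Unt they called 3405 to 4621 and 3631 to 5427, and in D_MgHCF against Unt 4071 to 8361 and 3156 to 4685. In D_MgHCF against DOX they called 6092 to 9515 and 4556 to 5300, and against D_DXZ 5758 to 9059 and 4295 to 5098. The split of higher to lower calls in DOX against Unt went from 6 and 1 to 2 and 6 under TPM and 2 and 4 per summed reads, and in D_DXZ against Unt from 4 and 3 to 1 and 7 and to 2 and 5.

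Reversed values under TPM in DOX against Unt were -0.17 for Wipi1, -0.62 for Atg7, -0.48 for Atg12, -0.35 for Gabarapl1, -0.23 for Wdr45, -0.16 for Tecpr1 and -0.26 for Ncoa4. In D_DXZ against Unt they were -0.34 for Wipi1, -0.73 for Atg7 and -0.58 for Gabarapl1. In D_MgHCF they were 0.036 for Becn1, 0.99 for Atg5, 0.12 for Atg7, 0.93 for Map1lc3b, 0.33 for Gabarap and 0.28 for Atg3 against DOX, and 0.086 for Becn1 and 0.23 for Atg7 against D_DXZ. Under summed reads they were -0.29 for Atg7 and -0.090 for Atg12 in DOX against Unt, -0.38 for Atg7 and -0.17 for Gabarapl1 in D_DXZ against Unt, 0.76 for Atg5, 0.68 for Map1lc3b, 0.085 for Gabarap and 0.038 for Atg3 in D_MgHCF against DOX, and 0.037 for Atg7 against D_DXZ. Quantile normalization gave -0.031 for Rab7 in DOX against Unt, and 0.71 for Map1lc3b, 0.49 for Gabarap and 0.12 for Rab7 in D_MgHCF against DOX. TPM and summed reads also shifted the median gene, whereas quantile normalization left it near its deposited value (0.026 against 0.048 in DOX against Unt), and the cause of those reversals was not tested. Which scaling holds for these cells was not tested either.

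With the replicate number as a block (replicate block), 6 genes were called in DOX against Unt, since Atg7 missed the threshold (adjusted p = 0.079), and 7, 7, 0, 4 and 6 in the other comparisons. Of all genes, that fit called 4572 higher and 4833 lower in DOX against Unt. In the other comparisons, in the same order, it called 3892 and 4379, 5756 and 3796, 0 and 0, 7648 and 4970, and 7118 and 4664. The deviations of same-numbered libraries had correlations from -0.408 to 0.422 over 18 pairs, with 2 over 0.1, so the numbers were not taken as pairs. With 3 libraries a group, Tfeb (49 reads at the lowest) was the member most limited by depth.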
